A study of Mus musculus with 28 samples.

Results

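Siglech, Bst2, Lair1, Klra17, Lag3, Ptprs and Tyrobp were chosen by name because they encode surface receptors of plasmacytoid dendritic cells (pDCs), or their shared adaptor, that are known for limiting interferon output. They are 7 of the 24421 genes counted, and all 7 passed the filter on low counts, as did 13159 genes in all. Bulk RNA-seq libraries came from splenic dendritic cells sorted from untreated C57Bl/6 mice aged 6 to 12 weeks. All mice carried the loxP-flanked Irf8fl/fl alleles. The control groups had no Cre and comprised 8 libraries of pDCs (pDC_WT), 8 of CD24+ conventional type 1 dendritic cells (cDC1_WT) and 8 of CD172a+ conventional type 2 dendritic cells (cDC2_WT). The remaining 4 libraries were pDCs of Irf8fl/fl Itgax-cre mice (pDC_TG), in which regulatory sequence of Itgax, the CD11c gene, drives the Cre that cuts Irf8. Cre and the cut Irf8 came together, so their effects cannot be told apart here.

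pDCs answer viral nucleic acids through endosomal Toll-like receptors with large amounts of type I interferon, and surface receptors hold that output in check. Siglec-H has no inhibitory motif of its own and signals through DAP12, the product of Tyrobp, whose activating motif (ITAM) recruits Syk-type kinases and, in pDCs, dampens Toll-like receptor signals. LAIR-1 and Ly49Q (Klra17) carry inhibitory motifs (ITIMs) that recruit phosphatases such as SHP-1, although Ly49Q has also been described as promoting interferon production. BST2, LAG-3 and the receptor phosphatase PTPRS complete the set.

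The libraries held 17299285 to 30787679 gene counts. Irf8 itself spanned 5379 to 6537 CPM in pDC_WT libraries and 1166 to 1787 CPM in those of pDC_TG, so reads of Irf8 remained in every pDC_TG library. Counts per gene do not separate transcript of a cut allele from that of an uncut one. CPM here are counts scaled to the TMM-adjusted library size. The pDC marker list summed to 8520 to 10930 CPM in pDC_WT and 8992 to 12250 CPM in pDC_TG, against 187.6 to 571.7 CPM in the conventional groups. pDC_TG replicate 4 stood apart with a summed neutrophil level of 197.9 CPM, against at most 4.999 CPM in pDC_WT. The 6 plasma cell markers summed to 1034 to 1276 CPM in pDC_TG and 207.4 to 375.3 CPM in pDC_WT. Of the 5 tested only Sdc1 rose (51.2 to 1108 CPM), beside 7.72% of all genes higher in pDC_TG. Mzb1 (197 to 40.1 CPM) and Derl3 (1.56 to 0.106 CPM) fell, beside 7.04% of all genes lower. The 6 T cell markers summed to 33.4 to 47.7 CPM in pDC_TG and 3.53 to 13.6 CPM in pDC_WT. Of these, Cd5 (4.58 to 21.3 CPM) and Tcf7 (0.721 to 15.3 CPM) rose, which averaged 20.9 and 52.4 CPM in cDC2_WT, and Cd3e, Cd3d and Cd3g each averaged at most 0.496 CPM in pDC_WT and pDC_TG. Which antigens the pDC gate used was not given in the sources. Siglec-H and BST2 are common pDC sorting antigens, and if the gate used either, its transcript is not independent of the sort. The labels number the mice and do not say whether a library came from 1 animal, so p-values measure the spread between these libraries. In bulk RNA, fewer cells of a type and less RNA per cell cannot be told apart.

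The promoters of 3 of the receptors are shown because Bst2 and Lair1 were lower in pDC_TG and Siglech set pDCs apart most widely. Sequences are from RefSeq on GRCm38 (mm10), 250 bases up to the annotated start, 5′ to 3′ on the gene's strand. Capitals mark matches on either strand to the core of the interferon-stimulated response element (GAAA, any 2 bases, GAAA), an ETS-IRF composite element (GGAA, any 2 bases, GAAA) or the E-boxes CAGGTG and CAGCTG, the type of site that the pDC factor TCF4 binds.

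Bst2 (chr8:71537473-71537722, minus strand): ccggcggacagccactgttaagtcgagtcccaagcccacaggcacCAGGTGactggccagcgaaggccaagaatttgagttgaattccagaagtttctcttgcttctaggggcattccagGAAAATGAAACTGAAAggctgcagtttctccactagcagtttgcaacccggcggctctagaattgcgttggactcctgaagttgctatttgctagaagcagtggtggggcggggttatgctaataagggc
Siglech (chr7:55767934-55768183, plus strand): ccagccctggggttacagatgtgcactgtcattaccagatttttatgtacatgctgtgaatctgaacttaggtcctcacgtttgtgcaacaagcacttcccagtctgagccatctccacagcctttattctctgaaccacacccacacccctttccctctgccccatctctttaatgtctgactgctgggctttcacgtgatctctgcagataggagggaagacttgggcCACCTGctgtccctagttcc
Lair1 (chr7:4063205-4063454, minus strand): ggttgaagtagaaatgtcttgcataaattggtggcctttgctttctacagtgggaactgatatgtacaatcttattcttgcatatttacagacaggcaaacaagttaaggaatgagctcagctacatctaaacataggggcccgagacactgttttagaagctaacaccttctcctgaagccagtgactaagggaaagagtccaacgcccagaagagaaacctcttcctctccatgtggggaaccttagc

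The Bst2 window held 2 matches to the interferon response core that overlap each other, starting 130 and 124 bases before the start, and 1 CAGGTG match 205 bases before it. The Siglech window held 1 CAGGTG match, on the opposite strand, 20 bases before the start. The Lair1, Klra17 and Ptprs windows held none of the 4 motifs. No window was available for Tyrobp, which was also lower in pDC_TG, or for Lag3, so these were not searched. Among 32851 promoter windows of this length, 2.98% held the interferon response core, 2.3% the composite element, 17.2% CAGGTG and 13.0% CAGCTG. A match describes letters in the window and no binding was measured.

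All 7 genes were higher in control pDCs than in either conventional population, and no pDC_WT library overlapped a conventional library for any of them. The share of all genes without such overlap was not computed, so nothing is read from the lack of overlap. Against cDC1_WT, 7 of 7 were called higher at an adjusted p below 0.05 (edgeR's quasi-likelihood test, adjusted by Benjamini-Hochberg over all genes tested, used throughout), where 30.3% of all genes were higher and 30.6% lower. Against cDC2_WT, 7 of 7 were higher as well, where 28.3% of genes were higher and 28.8% lower. The genes are known pDC genes, so this direction was fixed in part by their choice. The median log2 fold change (log2FC) of the 7 was 5.76 against cDC1_WT and 4.35 against cDC2_WT, beside medians of 0.03 and 0.01 over all genes.

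**Figure D1:**
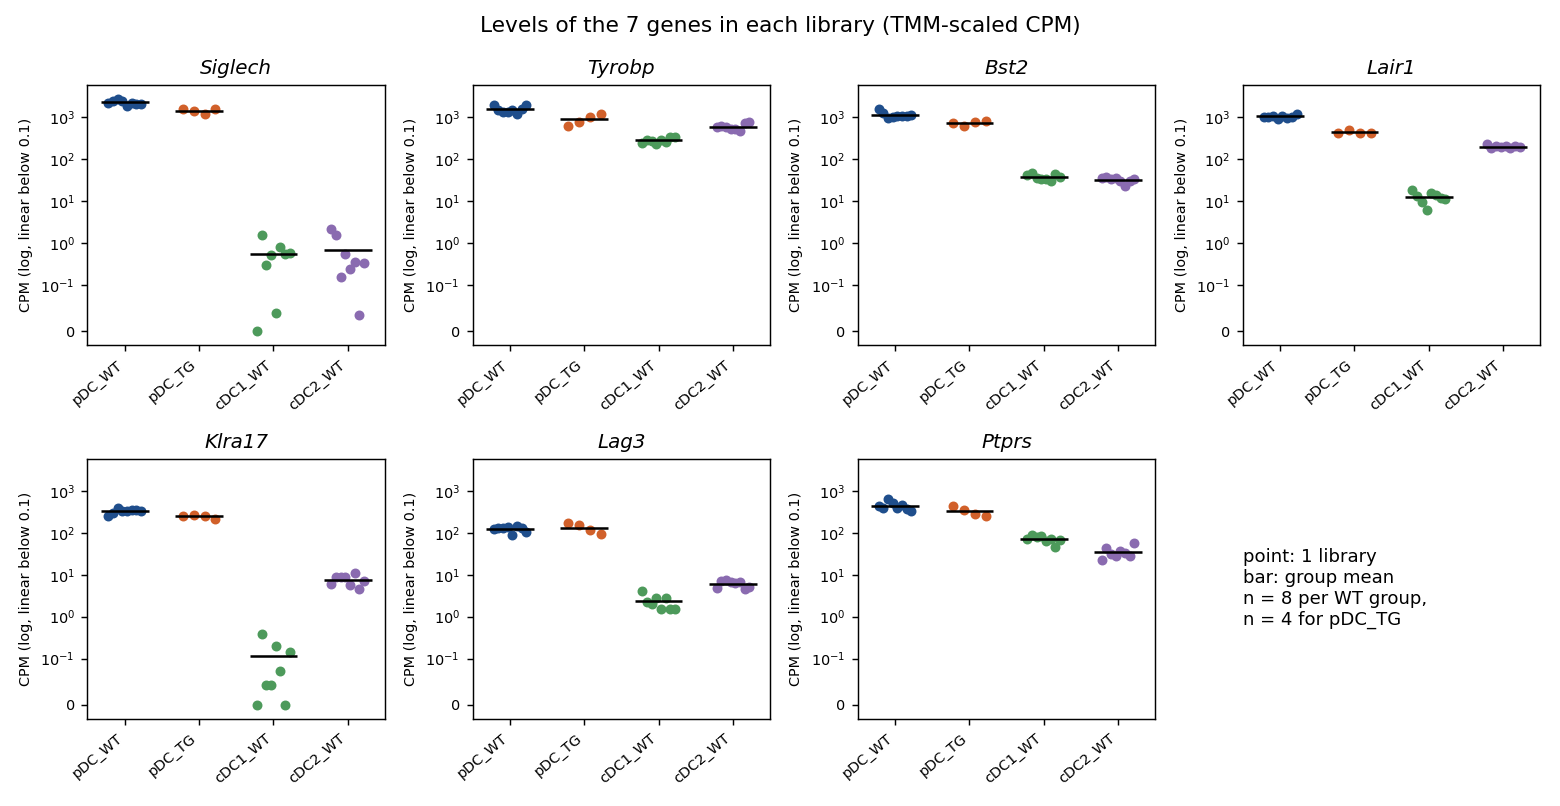
TMM-scaled CPM of the 7 genes in each of the 28 libraries on a log axis (linear below 0.1), with 1 point per library and a bar at the group mean. In each panel the pDC_WT points sit above all cDC1_WT and cDC2_WT points, from 2.57-fold above cDC2_WT for Tyrobp to 4271-fold above cDC1_WT for Siglech in the fit.

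Siglech (chromosome 7, 55768178 to 55778925) separated pDCs from conventional cells most widely. Its lowest, median and highest levels in pDC_WT were 1916, 2256 and 2765 CPM. In cDC1_WT it ran from 0 to 1.52 CPM and in cDC2_WT from 0.0352 to 2.18 CPM, which put the group means at 0.0234% and 0.0294% of the pDC_WT mean. The log2FC was 12.06 against cDC1_WT (SE 0.48, adjusted p = 5.28e-19) and 11.67 against cDC2_WT (SE 0.47, adjusted p = 7.2e-19). The conventional groups did not differ beyond their spread (log2FC of cDC1_WT minus cDC2_WT -0.39, 95% interval -1.48 to 0.70, adjusted p = 0.590).

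Tyrobp (chromosome 7, 30413760 to 30417585), the adaptor that Siglec-H needs, was present in all populations. Its levels were 1226, 1479 and 2037 CPM (lowest, median, highest) in pDC_WT, 474, 583 and 786 CPM in cDC2_WT and 230, 280 and 340 CPM in cDC1_WT. The order pDC_WT, cDC2_WT, cDC1_WT held without overlap between neighbours. pDC_WT exceeded cDC2_WT by a log2FC of 1.36 (SE 0.13, adjusted p = 1.81e-10) and cDC1_WT by 2.46 (SE 0.13, adjusted p = 4.08e-16).

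Lair1 (chromosome 7, 4003402 to 4063204), the collagen receptor, set the conventional populations apart too. Its lowest, median and highest levels were 935, 1044 and 1209 CPM in pDC_WT, 182, 204 and 227 CPM in cDC2_WT and 6.30, 12.6 and 18.1 CPM in cDC1_WT. The level in cDC2_WT was 19.1% of that in pDC_WT, and the level in cDC1_WT 1.18%. The log2FC of cDC1_WT minus cDC2_WT was -4.02 (SE 0.13, adjusted p = 7.17e-21). Klra17 (chromosome 6, 129831154 to 129876672) showed the same order, with 255, 339 and 390 CPM in pDC_WT, 4.58, 7.97 and 11.1 CPM in cDC2_WT and 0, 0.0580 and 0.392 CPM in cDC1_WT. Its log2FC of cDC1_WT minus cDC2_WT was -6.06 (SE 0.29, adjusted p = 6.62e-17). Klra17 belongs to a family of near-identical genes, but none of its 1188 windows of 75 bases, the read length, occurred in a transcript of another gene. Of the Lair1 windows 0.75% did.

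Lag3 (chromosome 6, 124904361 to 124911705), which encodes a receptor for MHC class II, was at 87.5, 132 and 148 CPM in pDC_WT (lowest, median, highest). It was at 4.72, 6.62 and 7.55 CPM in cDC2_WT and 1.49, 2.11 and 4.20 CPM in cDC1_WT, and these ranges did not overlap. Bst2 (chromosome 8, 71534255 to 71537456), which encodes an interferon-inducible virion tether, was at 981, 1098 and 1558 CPM in pDC_WT, 31.0, 37.1 and 46.7 CPM in cDC1_WT and 23.3, 33.7 and 36.8 CPM in cDC2_WT. The conventional ranges of Bst2 overlapped (cDC1_WT minus cDC2_WT log2FC 0.23, 95% interval 0.02 to 0.43, adjusted p = 0.0644). Ptprs (chromosome 17, 56412426 to 56476483) was at 343, 419 and 669 CPM in pDC_WT, 45.5, 70.9 and 87.9 CPM in cDC1_WT and 22.9, 32.9 and 58.7 CPM in cDC2_WT. Alone among the 7 it was called higher in cDC1_WT than in cDC2_WT (log2FC 0.99, SE 0.17, adjusted p = 1.08e-05), although the ranges overlapped.

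Of the 7 genes, cDC1_WT thus had 1 higher and 4 lower than cDC2_WT and 2 not called, beside 22.8% of all genes higher and 23.4% lower. The 4 lower genes were Lair1, Klra17, Lag3 and Tyrobp. Without cDC1_WT replicate 5 or 6, or cDC2_WT replicate 1 or 2, Bst2 was called as well, which made the number higher 2.

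Levels of different genes can be compared per length only, as RPKM, the CPM per kilobase. The length was that of all exonic bases of a gene in GENCODE M21, merged over its transcripts. Exons that a transcript leaves out thus lower its RPKM. The counts need not have been made on this annotation. On this scale the pDC_WT order was Tyrobp (2334 ± 438 RPKM, SD, n = 8), Bst2 (1280 ± 201), Siglech (679 ± 81.5), Klra17 (279 ± 34.6), Lair1 (141 ± 11.2), Lag3 (59.9 ± 9.42) and Ptprs (30.1 ± 6.75). Per length, the adaptor transcript thus exceeded that of its receptor Siglech in pDC_WT: the per-length ratio of Siglech to Tyrobp was 0.302 ± 0.0757. In CPM Siglech was the higher (means of 2298 and 1557), so this excess rests on the merged lengths of 3383 and 667 bases. In pDC_TG (n = 4) the order was the same except for Lair1 and Lag3, which were at 59.4 ± 4.30 and 64.3 ± 17.3 RPKM and did not differ beyond their spread.

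pDC_TG was set against pDC_WT, a comparison in which Cre and the cut Irf8 come together. Lair1, Tyrobp and Bst2 fell, and none of the 7 rose. That made 3 of 7 lower, beside 7.04% of all genes lower and 7.72% higher. The median log2FC of the 7 was -0.64, beside 0 over all genes. A fit of the 12 pDC libraries alone, which takes each gene's spread from pDCs only, called Siglech and Klra17 lower too, for 5 of 7, beside 8.09% of genes lower and 6.92% higher in that fit. Lag3 and Ptprs were called in neither fit. Against a 1.5-fold change rather than none, Lair1 alone was called. The share of all genes called against that change is not given here, so nothing is read from this count.

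**Figure D2:**
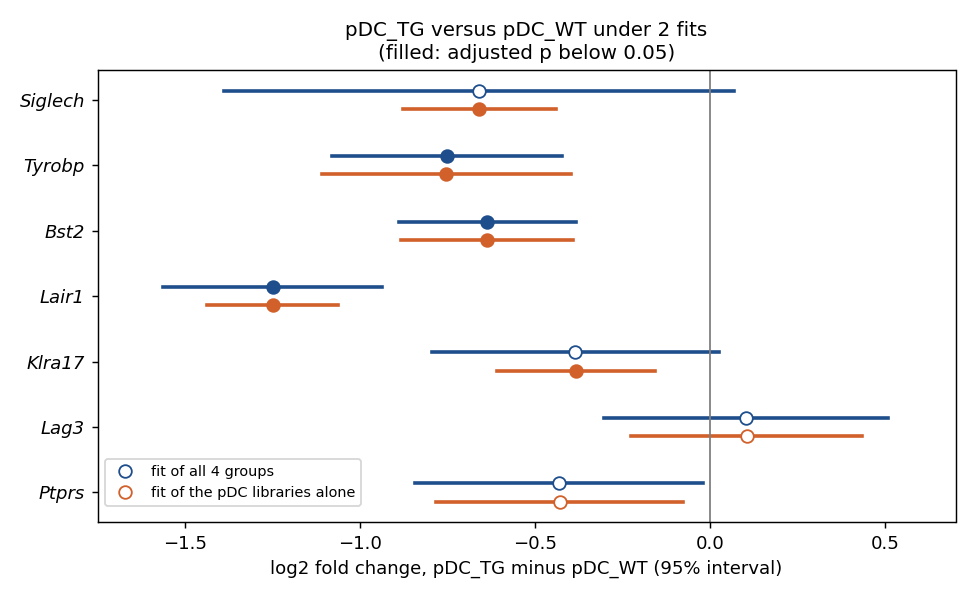
Log2 fold change of pDC_TG minus pDC_WT for each gene with its 95% interval, from the fit of all 4 groups (blue) and of the pDC libraries alone (orange); filled points have an adjusted p below 0.05. The points of both fits coincide, and the interval of Siglech narrows from -1.39 to 0.07 in the first fit to -0.88 to -0.44 in the second.

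Lair1 showed the largest change of the 7. Its 4 pDC_TG libraries were at 437, 491, 418 and 431 CPM (replicates 1 to 4), all below the lowest pDC_WT library at 935 CPM. The pDC_TG mean was 42.0% of the pDC_WT mean (log2FC -1.25, SE 0.15, adjusted p = 4.17e-07). Both groups were tight, with coefficients of variation of 7.93% in pDC_WT and 7.24% in pDC_TG. Lair1 in pDC_TG still exceeded cDC2_WT, with a log2FC of 1.14 (SE 0.14, adjusted p = 4.94e-08).

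Bst2 in pDC_TG was at 733, 639, 800 and 802 CPM in replicates 1 to 4, below every pDC_WT library. The mean was 64.3% of that in pDC_WT (log2FC -0.64, SE 0.12, adjusted p = 0.000379). The highest pDC_WT value, 1558 CPM in replicate 1, lay apart from the other 7, which ran from 981.4 to 1254 CPM, and without that library the log2FC was -0.56 and still called.

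Siglech in pDC_TG was at 1584, 1425, 1238 and 1569 CPM in replicates 1 to 4, also below every pDC_WT library. The mean was 63.3% of that in pDC_WT, nearly the share of Bst2. The fit of all groups gave a log2FC of -0.66 with an SE of 0.36 (adjusted p = 0.251), and the fit of pDC libraries alone the same log2FC with an SE of 0.10 (adjusted p = 0.000197). The fit of all groups shares 1 spread estimate per gene, and the coefficient of variation of Siglech was 12.0% in pDC_WT and 11.1% in pDC_TG but 90.0% in cDC1_WT and 115% in cDC2_WT, where it was near 0.

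Klra17 was at 262, 277, 260 and 219 CPM in pDC_TG replicates 1 to 4. These overlapped pDC_WT, whose replicate 1 was at 255 CPM and replicate 2 at 293 CPM while the other 6 lay between 335 and 390 CPM. The mean was 76.6% of that in pDC_WT (log2FC -0.39, 95% interval -0.80 to 0.02, adjusted p = 0.230), and the call came only in the fit of pDC libraries alone (adjusted p = 0.020).

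Tyrobp in pDC_TG was at 634, 773, 1051 and 1237 CPM in replicates 1 to 4, a wider spread than in pDC_WT (coefficient of variation 29.4% against 18.8%). Only replicate 4 reached the pDC_WT range. The mean was 59.3% of that in pDC_WT (log2FC -0.75, SE 0.16, adjusted p = 0.00118). Macrophages and monocytes also express Tyrobp. Their 12 markers summed to 2758 to 3675 CPM in pDC_WT and 3137 to 3860 CPM in pDC_TG, mostly Ly6c2, which pDCs themselves express. Of the 12 markers, 1 rose, 3 fell and 8 were not called, beside 7.72% of all genes higher and 7.04% lower. The macrophage gene Adgre1 averaged 0.559 CPM in pDC_WT and 0.357 CPM in pDC_TG. The part of such cells in the level of Tyrobp was not tested. Without pDC_TG replicate 4, the library with neutrophil transcripts, Tyrobp was again called lower (log2FC -0.93, adjusted p = 0.000233).

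Ptprs was at 440, 363, 282 and 250 CPM in pDC_TG replicates 1 to 4 and overlapped pDC_WT. Its log2FC was -0.43 (95% interval -0.84 to -0.02, adjusted p = 0.168). Lag3 was at 173, 159, 117 and 94.4 CPM in the same libraries, a range that covers most of that of pDC_WT. Its log2FC was 0.10 (95% interval -0.30 to 0.51, adjusted p = 0.841), an interval that excludes a fall of the size seen for Lair1. The sign of the Lag3 difference turned without pDC_TG replicate 1 (log2FC -0.04).

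Within pDC_TG, Tyrobp ran opposite to Ptprs and Lag3 across libraries, and a whole-library measure moved with it. Genes of at most 1000 exonic bases (145 genes, Tyrobp with 667 bases and Bst2 with 903 among them) were set against genes of at least 8000 bases (1501 genes, with Ptprs at 14990) by their median deviation from the group mean. In pDC_TG replicates 1 to 4 short minus long was -0.54, -0.25, 0.41 and 0.34 on the log2 scale. The deviation of Tyrobp was -0.50, -0.21, 0.23 and 0.47, and that of Ptprs 0.43, 0.15, -0.21 and -0.38. Between the groups, the median log2FC of pDC_TG minus pDC_WT was 0.07 over short genes and -0.07 over long genes. With each library's short-minus-long value as a covariate, an alternative chosen after seeing the data, the log2FC of Tyrobp was -0.78 and its SE dropped from 0.16 to 0.06 (adjusted p = 2.99e-10). The calls for the 7 genes in this comparison were as without the covariate.

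**Figure D3:**
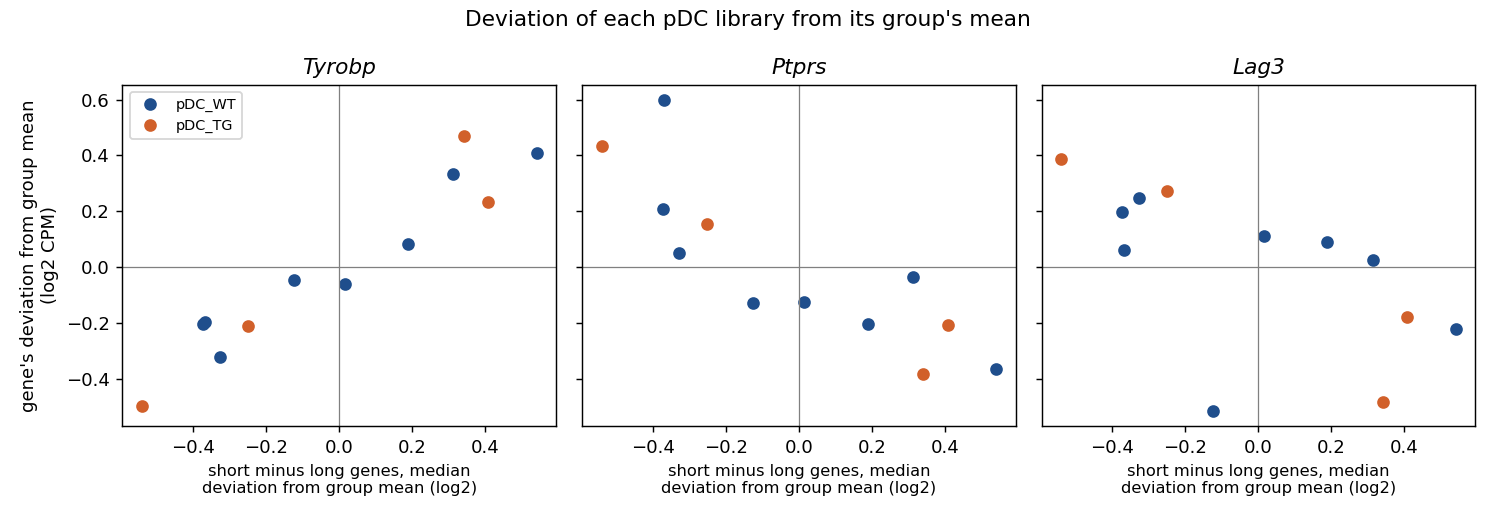
Deviation of Tyrobp, Ptprs and Lag3 from their group mean (log2 CPM) in each of the 12 pDC libraries, against the library's median deviation of short minus long genes, with pDC_WT in blue and pDC_TG in orange. Tyrobp lies lowest and Ptprs high in pDC_TG replicate 1, whose short-minus-long value of -0.54 is the lowest, and the deviations are taken within each group, so they carry no difference between groups.

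Siglech and its adaptor were also compared as a ratio within each library. This is free of library scaling but not of the short-minus-long measure, since Tyrobp is a short gene. The log2 ratio of Siglech to Tyrobp CPM was 1.32, 0.88, 0.24 and 0.34 in pDC_TG replicates 1 to 4 and ran from 0.01 to 1.05 in pDC_WT. Short minus long was -0.37 in pDC_WT replicate 3, with the highest ratio of that group, and 0.54 in replicate 8, with the lowest. In pDC_TG it was -0.54 in replicate 1, with the highest ratio, and 0.41 in replicate 3, with the lowest. The part of this measure in the spread of the ratio was not tested. The group means were 0.70 ± 0.50 (SD, n = 4) and 0.57 ± 0.37 (n = 8). The difference of 0.12 was within the spread (exact two-sided permutation test over 495 splits, p = 0.632, smallest possible 0.00202), and its sign turned to -0.09 without pDC_TG replicate 1.

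pDC_TG stood above both conventional groups for all 7 genes. Against cDC1_WT, 7 of 7 were higher, beside 27.1% of all genes higher and 26.6% lower, and against cDC2_WT 7 of 7, beside 24.3% higher and 23.9% lower. The smallest gap was that of Tyrobp over cDC2_WT, where the libraries overlapped (634 to 1237 CPM against 474 to 786 CPM, log2FC 0.61, SE 0.15, adjusted p = 0.00147), and it was not called against a 1.5-fold change (adjusted p = 0.47). These comparisons share libraries with those of pDC_WT and are not independent of them.

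By the root-mean-square difference of log2 CPM profiles over the 28 libraries, each centred on its own mean, the closest of 8095 genes to Bst2 was Lgals1 (0.231), the galectin-1 gene, whose mean was 898 CPM in pDC_WT against 640 CPM in pDC_TG. Cxxc5 (0.495) and Cmah (0.512) followed. Nearest to Tyrobp were Ctsh (0.247), Emp3 (0.305) and Ifnar2 (0.331), a subunit gene of the type I interferon receptor, and to Ptprs Grn (0.354), Atp13a2 (0.396) and Dap (0.414). Nearest to Lag3 were Tsc22d1 (0.409), Tcf4 (0.440), the gene of the master regulator of pDC identity, and Ptprcap (0.508), and to Lair1 Tnfrsf13b (0.391), Hvcn1 (0.521) and Cd4 (0.573). For Siglech the nearest were Klk1 (1.02), Dntt (1.21) and Cdh1 (1.23), and for Klra17 Smim5 (1.03), Zfp658 (1.10) and Gria3 (1.16). These larger differences came with larger profiles. The SD of the centred profile was 6.06 for Siglech and 4.56 for Klra17, against 0.977 (Tyrobp) to 2.60 (Lag3) for the other members. The difference grows with that SD, so its size is not compared between members. The likeness is mostly one between cell types: from pDC_WT to pDC_TG the mean went from 208 to 496 CPM for Dntt and from 960 to 217 CPM for Klk1.

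Gene lists around the receptors were read against all genes, of which 7.72% were higher and 7.04% lower in pDC_TG. Of 16 ITAM adaptors and downstream kinases, 1 rose, 2 fell and 13 were not called (median log2FC 0.04), which is close to those shares. Pik3ap1, which encodes the adaptor BCAP, known to dampen Toll-like receptor signals, fell from 533 ± 88.2 to 290 ± 63.7 CPM (-0.88, adjusted p = 2.4e-05), and the kinase gene Prkcd fell from 488 to 252 CPM (-0.95). The kinase gene Syk averaged 224 and 232 CPM in pDC_WT and pDC_TG (adjusted p = 0.917), and the adaptor gene Blnk averaged 273 and 264 CPM (0.977), where its conventional group means were at most 1.69 CPM. The alternative adaptors Fcer1g (467 and 360 CPM, adjusted p = 0.147) and Hcst (14.4 and 15.6 CPM, 0.877) were not called.

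Of 8 effectors of ITIM receptors, 2 fell, none rose and 6 were not called (median log2FC -0.08), beside 7.04% of all genes lower and 7.72% higher. Ptpn6, which encodes SHP-1, fell from 948 ± 82.5 to 640 ± 76.6 CPM (log2FC -0.57, adjusted p = 9e-05), and the adaptor gene Dok1 fell from 25.4 to 16.6 CPM (-0.61, adjusted p = 0.0421). The number of falls was 1 in the fit of pDC libraries alone and without pDC_TG replicate 4, and the former called 1 effector higher, so nothing is read from this count.

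Of 19 further inhibitory receptors measured, 4 rose, 5 fell and 10 were not called (median log2FC -0.32), beside 7.72% of all genes higher and 7.04% lower. Cd22, a sialic acid-binding receptor gene, rose from 2.17 to 42.1 CPM (4.25, adjusted p = 2.18e-07). The 7 B cell markers summed to 64.2 to 118 CPM in pDC_WT and 84.2 to 113 CPM in pDC_TG. These sums were mostly Cd79b, which averaged 83.4 CPM in pDC_WT and 91.0 CPM in pDC_TG. Of the 5 B cell markers tested, 1 rose, none fell and 4 were not called, beside 7.72% of all genes higher and 7.04% lower. Cd22 itself averaged 134 CPM in cDC2_WT and 9.33 CPM in cDC1_WT. The part of B cells or other cells in the rise of Cd22 was not tested. Clec12a, which encodes an inhibitory lectin, rose from 536 to 1213 CPM (1.18). Pirb, a receptor gene with ITIMs, fell from 149 ± 9.87 to 114 ± 12.7 CPM (-0.39, adjusted p = 0.000474). Of 15 other DAP12-coupled receptors, 11 were tested, 3 rose and none fell, all 3 at low level, beside 7.72% of all genes higher. The number was 1, close to that share, without pDC_TG replicate 4 and in the fit of pDC libraries alone. Cd300lb rose from 0.35 to 5.56 CPM (log2FC 3.97, adjusted p = 0.000102), and it averaged 42.0 CPM in cDC2_WT and 0.0331 CPM in cDC1_WT. Within pDC_TG, Clec5a and Trem3 were counted only in replicate 4, the library with neutrophil transcripts, at 1.69 and 1.21 CPM.

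Other Ly49 genes were low in pDCs. Of 17 in the count table, 3 passed the filter (Klra2, Klra3 and Klra5), and the highest value of the 3 in a pDC library was 0.542 CPM. Klra3 was called higher in pDC_TG at 0.210 against 0.00937 CPM, and the call was lost without pDC_TG replicate 4. Of 16 receptor-type phosphatase and related genes, 11 were tested, 1 rose and 2 fell (median log2FC -0.25), beside 7.72% of all genes higher and 7.04% lower. Ptprf, the phosphatase gene most closely related to Ptprs among those detected, fell from 153 ± 30.6 to 53.7 ± 14.7 CPM (adjusted p = 0.0153, log2FC -1.51 with an SE of 0.43), and its mean was at most 0.187 CPM in the conventional groups. Ptpro fell from 25.5 to 14.1 CPM (-0.85, adjusted p = 0.0213), and Ptpra rose from 142 to 253 CPM (0.84, adjusted p = 2.04e-07). The fit of pDC libraries alone and the fit without pDC_TG replicate 4 each called 1 of these genes lower, close to the share of all genes.

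Of 25 genes of ligands known for the receptors or of related molecules, 20 were tested, 5 rose, 4 fell and 11 were not called (median log2FC -0.23), beside 7.72% of all genes higher and 7.04% lower. Col17a1, a collagen gene whose product binds LAIR-1, fell from 10.0 ± 4.38 to 0.691 ± 0.897 CPM (log2FC -3.84, SE 0.85, adjusted p = 0.00176). Sdc1, a heparan sulfate proteoglycan gene, rose from 51.2 to 1108 CPM (4.44). The LAG-3 ligand genes Lgals3 (36.0 to 66.6 CPM, 0.89, adjusted p = 8.02e-05) and H2-Eb1 (1789 to 2369 CPM, 0.41, adjusted p = 4.8e-06) rose. Of the other LAG-3 ligand genes listed, H2-Aa rose (5054 to 6245 CPM, 0.31, adjusted p = 0.00211). H2-Ab1 was not called (6812 and 7010 CPM, adjusted p = 0.797), and Fgl1 averaged 0 CPM in every group. H2-K1, the class I gene whose product Ly49Q binds, was at 3594 and 3253 CPM (adjusted p = 0.438).

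**Figure D4:**
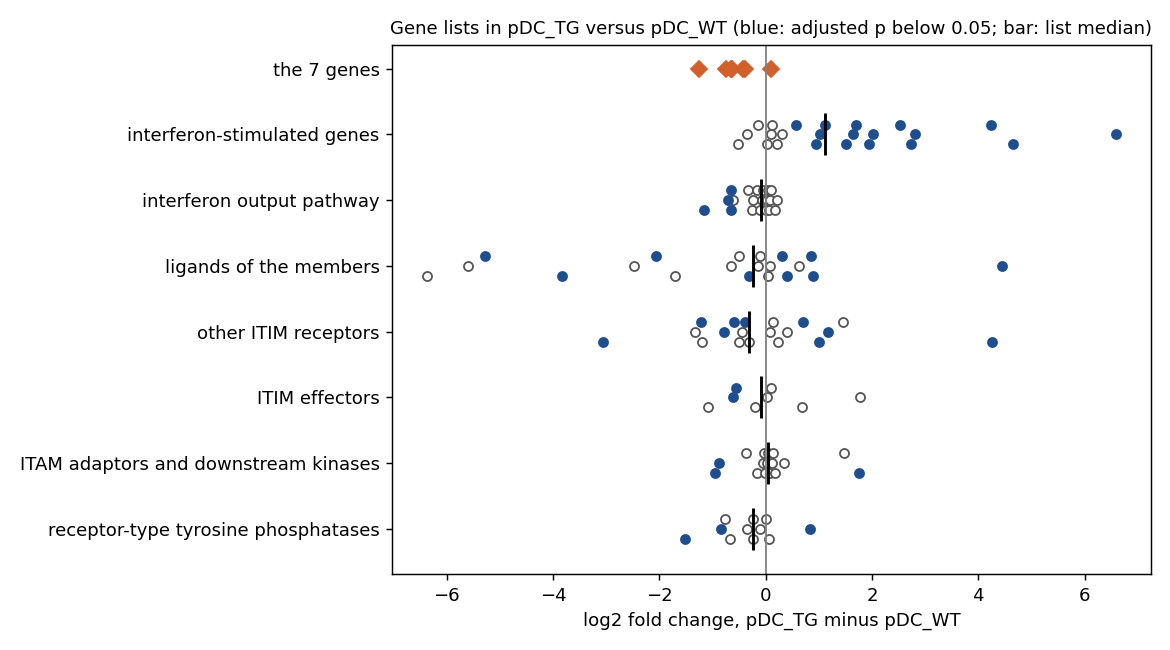
Log2 fold change of pDC_TG minus pDC_WT for the 7 genes (orange diamonds) and for the tested members of 7 gene lists, with adjusted p below 0.05 in blue and a black bar at each list's median. The interferon-stimulated genes lie to the right with a median of 1.12, whereas 6 of the 7 receptor and adaptor genes lie left of 0.

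The receptors act on the pathway of interferon output. Of its 25 genes listed, from endosomal sensing to interferon, 20 were tested, 4 fell and none rose (median log2FC -0.09), beside 7.04% of all genes lower and 7.72% higher. Ctsb, a lysosomal protease gene, fell from 5724 ± 340 to 3662 ± 200 CPM (log2FC -0.64, adjusted p = 5.71e-10), Irf5 from 318 to 143 CPM (-1.15), Pld4 from 2394 to 1526 CPM (-0.65) and Tlr7 from 384 to 235 CPM (-0.71). The interferon genes Ifna1, Ifna2, Ifna4, Ifna5 and Ifnb1 did not pass the filter, and none averaged more than 0.252 CPM in any group. The mice were untreated, so induced interferon output was not measured. Bst2 is an interferon-stimulated gene by background knowledge, and 15 of 23 other such genes rose and none fell (median log2FC 1.12), beside 7.72% of all genes higher and 7.04% lower. Rtp4 rose from 1.57 to 150 CPM (6.59), Oas3 from 7.35 to 48.7 CPM (2.73) and Zbp1 from 13.0 to 42.0 CPM (1.70), while Bst2 fell by 0.64 on the log2 scale. In cDC2_WT Rtp4, Oas3 and Zbp1 were at 98.2, 51.5 and 38.6 CPM. The 8 cDC2 markers summed to 1358 to 2128 CPM in pDC_WT and 1318 to 1624 CPM in pDC_TG. Among them 4 rose and 2 fell, beside 7.72% of all genes higher and 7.04% lower. Itgam rose from 0.401 to 31.9 CPM, Tmem176a from 17.6 to 110 CPM, Tmem176b from 38.4 to 242 CPM and Irf4 from 146 to 434 CPM. Cd209a fell from 782 to 320 CPM and Clec10a from 251 to 35.2 CPM. The part of other cells in the rise of the interferon-stimulated genes was not tested. The counts of 15 and 0 were the same in the fit of pDC libraries alone and without pDC_TG replicate 4.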

How the data were processed

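Per the labels, RNA was amplified with a SMART-Seq v4 kit and sequenced as single 75-base reads. Per the submitters' processing notes, the tools were TopHat2 2.1.0, SAMtools 0.1.18, Trimmomatic 0.35 and FastQC 0.11.4, and the build was mm10. Neither counter nor annotation is given in the sources used here. Each library's deposited file holds raw counts of reads by gene symbol, which the authors did not normalize. The 5 summary lines, of which reads outside genes made up 8.23% to 18.7% of a library, were left out. Neither strand nor molecules were marked, so counts do not separate PCR copies. None of the 7 genes shares exonic bases with another gene in GENCODE M21, which also gave positions and lengths.

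All genes entered edgeR 4.0.16 (R 4.3.3): filterByExpr by group (minimum count 10, minimum total 15), TMM scaling, and 1 robust quasi-likelihood fit of all 28 libraries with group as the only term, tested in 6 comparisons at a Benjamini-Hochberg adjusted p of 0.05. Standard errors follow from the F statistic. Log2 CPM used a prior count of 2. The fit was tested on simulated data first. No pair of libraries in a group agreed within sampling noise (lowest chi-square per degree of freedom 33.6 over genes with 20 or more counts). Alternatives included DESeq2 1.42.0, other scalings, no filter, fewer libraries and a replicate block.

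The genes, the lists and the tests were chosen with earlier results of these data known. All 7 genes are named, with the 3 genes nearest to each (mean of at least 10 CPM, predicted genes skipped), up to 3 called genes per list with the smallest adjusted p, and known binding partners. Tlr7, H2-Aa, H2-Ab1, Fgl1, the interferon genes and the single marker genes of other cell types were added after their values were seen. A table of protein sequences was not used here. The values of 1 listed gene are not reported here.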

Additional observations from a re-analysis of the deposited data

Results flagged for a closer look

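In 28 sets of values (7 genes in 4 groups), the gap between the most extreme library and its neighbour, as a share of the group's range, exceeded Dixon's 95% critical value in 2, both for Bst2. Chance flags about 1 in 20 such sets. pDC_WT replicate 1 was at 1558 CPM, while the other 7 pDC_WT libraries lay between 981.4 and 1254 CPM. cDC2_WT replicate 6 was at 23.28 CPM, while the other 7 lay between 30.49 and 36.85 CPM.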

How the results depend on the processing

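Depth did not limit the pDC values, since each gene had at least 1803 counts in every pDC library, whereas Siglech and Klra17 had 0 to 58 and 0 to 258 counts in conventional libraries. In pDC_TG versus pDC_WT the number of the 7 genes lower was 1 against a 1.5-fold change and 5 in the fit of the 2 groups compared, against 3 as reported; it was 3 in each fit that left out 1 library. In cDC1_WT versus cDC2_WT the number higher was 2 with a replicate block and 2 with the short-minus-long covariate, against 1, and 1 to 2 when 1 library was left out. The other counts for the 6 comparisons stayed within 1.5 times under every alternative run. The Siglech to Tyrobp ratio turned to -0.0391 with WT replicates 1 to 4 and ran from -0.0867 to 0.275 when 1 library was left out, with p above the threshold throughout. Among differences that were not called, the sign turned for Lag3 in pDC_TG versus pDC_WT with the replicate block (-0.0662) and without pDC_TG replicate 1 (-0.0367 to 0.242 over all libraries left out), and for Siglech in cDC1_WT versus cDC2_WT with WT replicates 5 to 8 (1.095) and without cDC2_WT replicate 1 (-0.815 to 0.179 over all libraries left out); the cause was not tested. The deviations of same-numbered libraries correlated at 0.108 at most. Even so, 8 of 8 cDC1_WT libraries correlated best with the cDC2_WT library of their own number. So did 7 of 8 and 6 of 8 pDC_WT libraries with the cDC1_WT and cDC2_WT library of theirs. Between pDC_WT and pDC_TG 1 of 4 did. A shared animal or batch among same-numbered control libraries thus remains possible, and the main fit has no term for it. The replicate block left 3 genes lower in pDC_TG versus pDC_WT and, besides the cDC1_WT versus cDC2_WT count above, changed no count of these genes. It also joins pDC_TG libraries to same-numbered control libraries, although the mice differ in genotype, so it is no check of pairing for pDC_TG versus pDC_WT. With it the log2FC of Siglech in that comparison was -0.95, against -0.66 in the main fit.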
